A study of Homo sapiens with 12 samples.

Results

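The genes described here encode the inhibitors of cyclin-dependent kinases (CDKs), the kinases that drive a cell through its division cycle. They are the 7 genes CDKN1A, CDKN1B, CDKN1C, CDKN2A, CDKN2B, CDKN2C and CDKN2D, taken by symbol from the 57773 genes of the deposited expression table. No measured value entered that choice. RNA had been sequenced from U87, an established glioblastoma cell line, in 6 groups of 2 libraries: a parental and a JQ1-resistant U87 line, each treated for 24 h with the solvent DMSO, with 1000 nM JQ1 or with 1000 nM dBET6. JQ1 occupies the pockets with which BET proteins, chromatin readers that support transcription, bind acetylated lysine. dBET6 couples a ligand of the JQ1 type to a ligand of cereblon and thereby sends BET proteins to the proteasome. All 6 groups derive from 1 cancer line. How the resistant line was selected, whether it is 1 clone and whether the libraries of a group came from separate cultures are not stated in the labels, so a p-value here reflects the variation between these libraries alone, which may be technical.

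CDK inhibitors fall into the CIP/KIP family (p21 from CDKN1A, p27 from CDKN1B, p57 from CDKN1C), whose members bind cyclin-CDK complexes broadly, and the INK4 family (p16 from CDKN2A, p15 from CDKN2B, p18 from CDKN2C, p19 from CDKN2D), whose members hold CDK4 and CDK6. The product of CDKN1A, a gene induced by many kinds of stress, also binds the replication clamp PCNA. CDKN2A is among the genes most often deleted in glioblastoma, and U87 is known to lack it. DNA was not analysed here.

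The libraries held 24732177 to 40388589 estimated counts, with at most 29041636 in the 4 dBET6 libraries and at least 31346557 in the others. Libraries of a group correlated at 0.982 to 0.994 across genes. The 50 most abundant genes took 24.4% to 29.5% of the counts in the dBET6 libraries against 11.9% to 17.7% elsewhere, and mitochondrial mRNAs 3.02% to 3.75% against 1.4% to 2.59%. Levels are given in CPM (counts scaled to a common library size) after TMM scaling, which centres the bulk of genes, or in the deposited FPKM, which are per length. Scaling to total counts instead placed the median gene at −0.65 (log2) for parental dBET6 against DMSO and at −1.14 for resistant dBET6, and scaling to mitochondrial mRNAs at −1.78 and −2.12, so a change under TMM is a change relative to most other genes. Of the markers fitting U87, VIM (2908 to 11067 FPKM), CD44, FN1 and CHI3L1 were high in every library, GFAP stood at 1.58 to 6.39 FPKM, NES at 3.67 to 20.1 FPKM, and S100B and OLIG2 reached at most 1.87 FPKM. SOX2 stood at 0.0236 FPKM or less without dBET6 and at 0.297 to 1.66 FPKM with it. The 5 glial markers summed to 6.85 to 18.7 FPKM without and 14.3 to 27.2 FPKM with dBET6, and their part in the results was not tested. The leukocyte genes PTPRC and CD3E reached at most 0.238 FPKM. Of 3 epithelial markers, CDH1 stood at 1.47 to 2.96 FPKM in the dBET6 libraries and at 0.255 or less in the others, EPCAM reached at most 0.620 FPKM and KRT5 was at 0 in 9 libraries. The 3 summed to 1.525 to 3.24 FPKM with dBET6 and to 0.197 to 0.708 FPKM without, and their part in the results was not tested.

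Of the 7 genes, 3 passed the filter on low counts and were tested among 19093 genes with edgeR's quasi-likelihood test: CDKN1A, CDKN1B and CDKN2D. The other 4 had at most 5 counts in any library. With dBET6, CDKN1A and CDKN2D were called higher and CDKN1B lower in both lines, where 76.3% of all tested genes were called in the parental and 75.2% in the resistant line. With JQ1, CDKN1A was called higher in both lines, CDKN2D lower in the parental line and CDKN1B lower in the resistant line, where 48.9% and 43.9% of all genes were called. By direction, 37% of all tested genes were called higher and 39.3% lower with dBET6 in the parental line, and 35.7% and 39.5% in the resistant line, against 22.8% and 26.1% with JQ1 in the parental and 20.8% and 23.1% in the resistant line. A call by itself therefore sets none of the 3 genes apart. By fold change with dBET6, CDKN1A was number 498 from the top in the parental and 317 in the resistant line, CDKN2D number 5025 and 7215, and CDKN1B number 11668 and 10565.

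CDKN1A lies on chromosome 6 (chr6:36676460-36687339, plus strand, GRCh38, GENCODE release 29). The stretch upstream of its main coding transcript is shown because this was the gene with the large change. It comes from RefSeq (GRCh38.p14), covers chr6:36678464-36678657 on the plus strand and is written 5′ to 3′, with capitals marking GC boxes (GGGCGG, the letters bound by SP1-type factors) and the CAGCTG box.
CDKN1A upstream: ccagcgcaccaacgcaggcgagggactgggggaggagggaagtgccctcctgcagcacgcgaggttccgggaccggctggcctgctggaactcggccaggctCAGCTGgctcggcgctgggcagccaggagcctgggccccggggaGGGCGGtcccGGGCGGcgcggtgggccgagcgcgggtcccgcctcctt
The RefSeq window of 250 bases before the CDKN1A start, of which these are the first 194, held 4 GGGCGG matches on either strand, the last 2 of them overlapping, 1 CAGCTG and no CCAAT, at 76.4% G and C. Among 35116 windows of that length, 42.6% held GGGCGG, 14% held CAGCTG and 32% held CCAAT. A match is only a match of letters.

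In the parental DMSO libraries CDKN1A stood at 123 and 134 CPM, and in the resistant DMSO libraries at 125 and 126 CPM. JQ1 libraries stood at 265 and 272 CPM in the parental line and at 324 and 339.7 CPM in the resistant line. dBET6 libraries stood at 7829 and 6963 CPM in the parental line and at 14122 and 13131 CPM in the resistant line. Both libraries of each treated group lay above both DMSO libraries of their line, and the dBET6 groups lay far above every other library. On the per-length scale the mean level went from 65.6 FPKM ± 3.17 (SD, n = 2) in parental DMSO to 4499 FPKM ± 243 in parental dBET6, and from 63.2 FPKM ± 0.806 in resistant DMSO to 10162 FPKM ± 891 in resistant dBET6.

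**Figure D1:**
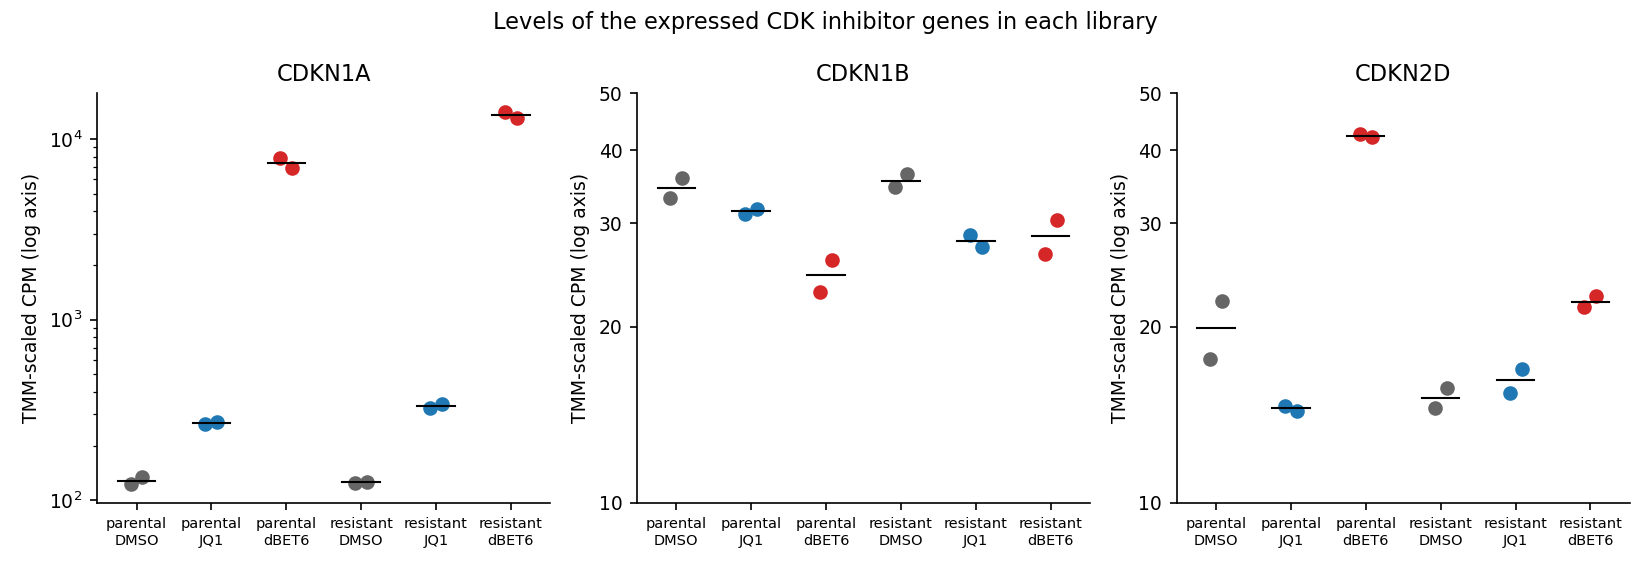
TMM-scaled CPM (log axis) of CDKN1A, CDKN1B and CDKN2D in each of the 12 libraries, with points for libraries and bars for the mean of the 2 libraries of a group. The CDKN1A points of dBET6 sit between 6963 and 14122 CPM, those of CDKN1B between 22.9 and 30.4 CPM and those of CDKN2D between 21.6 and 42.6 CPM.

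dBET6 raised CDKN1A 57.6-fold in the parental line (95% interval 49.3 to 67.3, log2 fold change 5.85, SE 0.11, adjusted p = 6.94e-25 by edgeR) and 109-fold in the resistant line (92.3 to 128, log2 6.76, SE 0.11, adjusted p = 8.14e-26). For comparison, 5.59% of tested genes in the parental and 4.93% in the resistant line were called higher by at least 16-fold with dBET6. JQ1 at the same dose and time raised CDKN1A 2.09-fold in the parental line (1.84 to 2.38, log2 1.06, SE 0.09, adjusted p = 1.67e-10) and 2.64-fold in the resistant line (2.32 to 3.01, log2 1.40, SE 0.09, adjusted p = 1.35e-12). The DMSO libraries serve both comparisons of a line. Set directly against JQ1, the degrader left CDKN1A 27.5-fold higher in the parental line (23.7 to 31.9) and 41.1-fold higher in the resistant line (35.3 to 47.8), in comparisons where 74.6% and 74.2% of all genes were called. The rise with either compound kept its direction and its call under every scaling tried. It was smallest under mitochondrial scaling, at log2 4.07 for parental dBET6 and 4.70 for resistant dBET6. In bulk RNA, more cells with the transcript and more transcript per cell cannot be told apart.

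In single libraries the transcripts of this gene went from 0.0146% and 0.0158% of all counts with DMSO to 0.567% and 0.543% with dBET6 in the parental line, and from 0.0155% and 0.0157% to 0.831% and 0.761% in the resistant line. Ranked by FPKM, CDKN1A moved from place 1727 and 1578 to place 50 and 55 in the parental line, and from 1586 and 1540 to 37 and 42 in the resistant line. With JQ1 it took place 694 and 697 in the parental line and 558 and 541 in the resistant line.

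Without compound the lines did not differ detectably in CDKN1A (log2 −0.03, 95% interval −0.22 to 0.15, adjusted p = 0.809 by edgeR, 38.5% of all genes called). With dBET6 the resistant line stood 1.84-fold above the parental line (1.62 to 2.09, adjusted p = 4.93e-09, 44% called), and all 4 libraries were separated by line. The log2 value of 0.88 became 0.52 with total counts and 0.34 under mitochondrial scaling, where it did not pass (adjusted p = 0.16). The test of the response itself, resistant minus parental, gave a log2 difference of 0.91 for dBET6 (SE 0.13, adjusted p = 4.41e-06), where 27.9% of all genes were called. Under mitochondrial scaling the same difference was 0.63 and did not pass (adjusted p = 0.134), and with total counts it was 0.48. For JQ1 the resistant line stood 1.23-fold above the parental line (1.09 to 1.40, adjusted p = 0.00878, 35.9% called). That call was lost without parental JQ1 library 1 (adjusted p = 0.0801) or resistant JQ1 library 2 (adjusted p = 0.11), and the direction turned under mitochondrial scaling (log2 −0.22). The difference in JQ1 response did not pass (log2 0.34, interval 0.08 to 0.60, adjusted p = 0.119, 6.5% of all genes called). In order of level the 6 groups ran from DMSO in either line, which overlapped, through parental JQ1, resistant JQ1 and parental dBET6 to resistant dBET6.

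**Figure D2:**
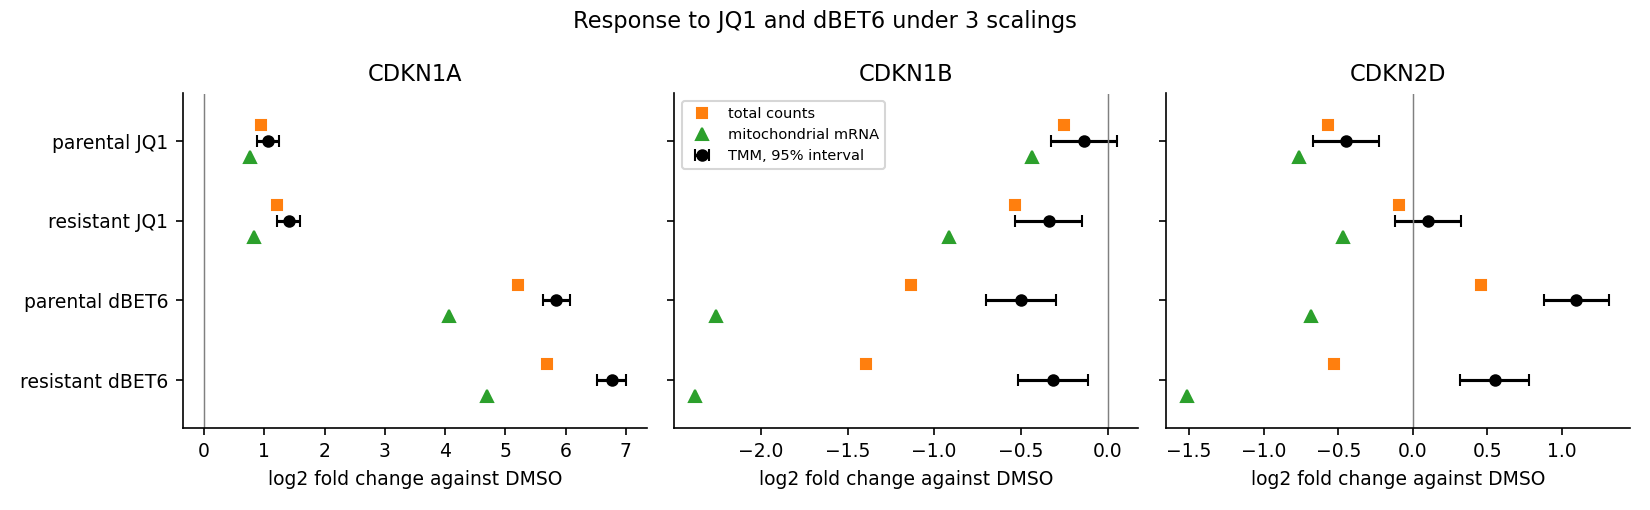
log2 fold change against DMSO of the 3 tested genes for each compound and line under TMM (black, with its 95% interval), total counts (orange squares) and mitochondrial mRNA scaling (green triangles). All CDKN1A values lie to the right of 0, down to 0.77 for parental JQ1, all CDKN1B values lie to the left of 0, and the CDKN2D values for dBET6 run from −1.51 to 1.09 across the scalings.

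The files resolve transcripts, so the CDKN1A rise could be divided among its isoforms as kallisto assigns reads to them. Isoforms that overlap share reads, so these shares are estimates and were not tested. The main coding transcript, ENST00000244741, made up 86.7% of the gene's TPM in parental DMSO and 88.6% in resistant DMSO, a like share with JQ1 (87.1% and 86.3%), and less with dBET6 (67.5% and 50.6%). It still rose 53.8-fold with dBET6 in the parental and 90.8-fold in the resistant line.

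A short non-coding transcript, ENST00000462537, moved the other way. Its share was 1.51% and 0.589% in the parental DMSO libraries, 8.90% and 8.56% in the parental dBET6 libraries, 2.37% and 2.74% in the resistant DMSO libraries and 31.3% and 29.2% in the resistant dBET6 libraries. Its estimated level with dBET6 was 138 and 128 CPM in the parental libraries and 1129 and 909 CPM in the resistant ones, a mean ratio of 7.67, while the main coding transcript differed 1.68-fold between the same groups. The minor coding transcripts ENST00000373711 and ENST00000405375, with at most 4.45% and 3.52% of the gene's TPM in resistant dBET6, differed 4.74-fold and 3.24-fold, so the short form was not alone in a larger line difference. Leaving the short transcript out of the gene's counts placed resistant above parental dBET6 by log2 0.80, against 0.88 for the whole gene.

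This transcript of 553 bases has the exons chr6:36678771-36678939 and chr6:36680474-36680857 (GRCh38), and its last exon lies within the first intron of ENST00000244741, overlapping no other exon of the annotation used. The end of that exon is shown because the exon belongs to the short form alone. It is the last 150 bases, chr6:36680708-36680857, plus strand, from GENCODE release 29, with the hexamers AATAAA and ATTAAA, the usual signals for cleavage and polyadenylation, in capitals.
ENST00000462537 end: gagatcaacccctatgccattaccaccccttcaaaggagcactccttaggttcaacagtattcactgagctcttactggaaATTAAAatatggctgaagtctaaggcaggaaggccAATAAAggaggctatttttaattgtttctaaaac
On this strand AATAAA ended 28 bases and ATTAAA 63 bases before the transcript's end. Of 199567 annotated transcripts of at least this length, 28.9% held AATAAA and 12% held ATTAAA in their last 150 bases. The deposited tables give no read positions, so use of this end was not tested. Unspliced RNA that keeps the intron around this exon cannot be told apart from the short form in these estimates. Another non-coding form, ENST00000478800, which reaches into the first coding exon, took 9.35% of the gene's TPM in parental DMSO and 19.4% in parental dBET6, and 6.28% and 11.6% in the resistant line.

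**Figure D3:**
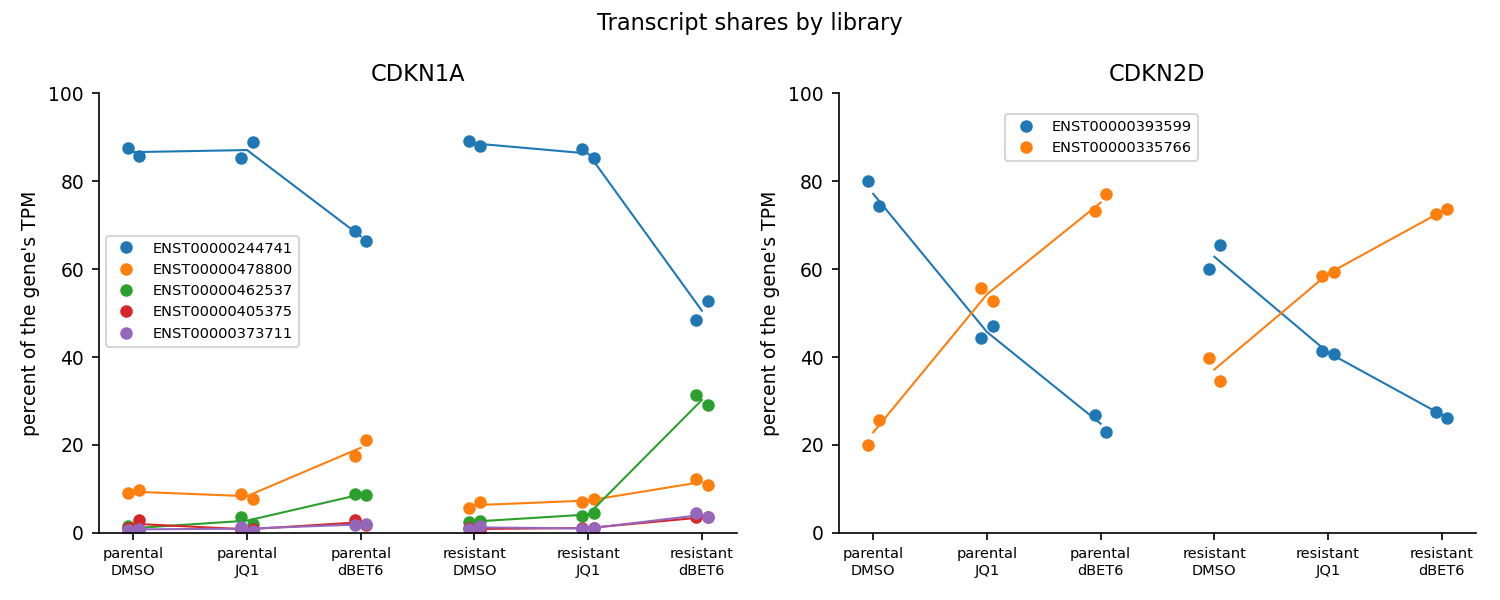
Share of each annotated transcript in the TPM of CDKN1A (left) and CDKN2D (right), in percent, with points for libraries and lines joining the group means within a line. ENST00000462537 lies between 0.589% and 4.54% outside dBET6 and reaches 31.3% in resistant dBET6, and the CDKN2D transcripts cross in both lines.

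Genes beside CDKN1A did not share 1 direction. RAB44, a RAB GTPase gene 10.5 kb downstream on the same strand, stood at 0.00772 to 0.258 FPKM in the 8 libraries without dBET6 and at 7.14 to 11.2 FPKM in the 4 with it. It has no paired counts and so no test here. CPNE5, a calcium-binding copine gene 53.4 kb away on the opposite strand, was at most 0.0197 FPKM without and 2.97 to 6.84 FPKM with dBET6. It passed the low-count filter through the dBET6 libraries alone, so no test is given. The splicing factor gene SRSF3, the kinase gene STK38 and the peptidyl-prolyl isomerase gene PPIL1 were called lower with dBET6 in both lines, SRSF3 at log2 −1.39 in the parental and −1.97 in the resistant line.

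CDKN1B, on chromosome 12 (chr12:12715058-12722371, plus strand), changed far less than CDKN1A under TMM. DMSO libraries stood at 33.2 and 35.9 CPM in the parental line and at 34.6 and 36.4 CPM in the resistant line. JQ1 libraries stood at 31.1 and 31.8 CPM (parental) and at 28.7 and 27.4 CPM (resistant), and dBET6 libraries at 22.9 and 26.0 CPM (parental) and at 26.6 and 30.4 CPM (resistant). Every treated library lay below every DMSO library of its line, also for parental JQ1, which was not called. With 2 libraries a group, such a separation is not a test. The fall with dBET6 was 1.41-fold in the parental line (log2 −0.50, SE 0.10, adjusted p = 4.97e-05 by edgeR) and 1.24-fold in the resistant line (log2 −0.31, SE 0.10, adjusted p = 0.0055). The resistant call was lost with DESeq2's size factors (log2 −0.13, adjusted p = 0.228), and without resistant dBET6 library 1 (−0.26, adjusted p = 0.0502), while total counts gave −1.13 (parental) and −1.39 (resistant) and mitochondrial scaling −2.26 and −2.38. With JQ1 the resistant line fell 1.27-fold (log2 −0.34, adjusted p = 0.00389, lost without resistant DMSO library 2, adjusted p = 0.0576), and the parental value of log2 −0.14 did not pass (interval −0.33 to 0.06, adjusted p = 0.243), though it did with total counts (−0.25, adjusted p = 0.0358). Between the lines CDKN1B did not differ detectably in JQ1 (log2 −0.17, adjusted p = 0.18) or in dBET6 (0.22, adjusted p = 0.0845). With mitochondrial scaling the JQ1 value passed (−0.69, adjusted p = 0.00412), and the dBET6 value passed with DESeq2's size factors (0.29, adjusted p = 0.0289). Neither response differed detectably between the lines (log2 −0.20 for JQ1, adjusted p = 0.412, and 0.18 for dBET6, adjusted p = 0.354). dBET6 lay below JQ1 in the parental line (log2 −0.36, adjusted p = 0.00174, −0.24 and 0.0603 with the DESeq2 test, and −0.88 and −1.82 with total counts and mitochondrial scaling) and not detectably apart from it in the resistant line (log2 0.03, interval −0.18 to 0.23, adjusted p = 0.826). Of its neighbours, the RNA helicase gene DDX47 went from 31.5 to 32.7 FPKM in parental DMSO to 3.08 to 3.27 FPKM with dBET6 (log2 −3.59 in the parental and −3.80 in the resistant line), and APOLD1 was called higher (1.99 and 1.54, the latter −0.53 under mitochondrial scaling). The receptor gene GPR19 did not pass (−0.57 and −0.33).

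Protein was not measured here, and p27 is known to be controlled to a large part by its breakdown through the SKP2 ubiquitin ligase. Of 10 genes that control p27 or p57, 2 were called higher and 5 lower with JQ1 in the parental line, and 2 and 4 in the resistant line. With dBET6 the counts were 4 and 6 in the parental and 4 and 5 in the resistant line, with list medians of log2 −0.77 and −0.29 against −0.01 and −0.06 for all tested genes. These counts are to be read against the shares of all genes called, given above. SKP2 itself was called lower in all 4 comparisons, by log2 −0.78 with JQ1 and −2.37 with dBET6 in the parental line, and by −0.81 and −2.92 in the resistant line. CUL1, the scaffold of that ligase, stood at −3.12 and −2.54 with dBET6. RNF123, part of a second ligase for p27, was called higher in all 4 comparisons under TMM, at 1.15 and 1.09 with dBET6, values that turned to −0.62 and −0.97 under mitochondrial scaling.

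CDKN1C, an imprinted gene on chromosome 11 (chr11:2883213-2885773, minus strand), was barely detected, with 26 counts in the 12 libraries and at most 5 in any one. Both parental dBET6 libraries held 5 counts, which over the group was 10 counts against 3 in parental DMSO, a ratio of 6.96 per TMM-scaled count with a counting interval of 1.79 to 39.4. In the resistant line the 3 counts with dBET6 against 6 with DMSO gave a ratio of 1.5 (0.243 to 7.02). These intervals cover counting error only and were not computed under another scaling. Mitochondrial scaling placed the median gene at log2 −1.78 for parental dBET6 against DMSO. Close by, PHLDA2, an imprinted growth regulator, rose from 14.6 to 22.7 FPKM without dBET6 to 53.3 to 79.3 FPKM with it (log2 2.003 and 1.998, adjusted p = 4.89e-12 and 6.69e-12, and −0.07 in the resistant line under mitochondrial scaling). The potassium channel gene KCNQ1 was at most 0.0256 FPKM without dBET6 and 0.862 to 1.28 FPKM with it, and its antisense RNA KCNQ1OT1 stood at 0.0958 to 0.212 and at 0.467 to 0.868 FPKM. SLC22A18, a transporter gene 13.9 kb away, did not pass with dBET6 (log2 0.27 and 0.28), and NAP1L4, a histone chaperone gene, did not pass in the parental line (−0.09) and was called lower in the resistant line (−0.26).

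Among the INK4 genes, 3 had almost no reads. CDKN2A held 1 count in 1 parental dBET6 library, CDKN2B 1 count in 1 resistant JQ1 library, and CDKN2C none in any library. A count of 0 allows up to 3 counts, here 0.0600 to 0.206 CPM depending on the library. MTAP, the neighbour of CDKN2A that codes for methylthioadenosine phosphorylase and is often deleted along with it, stood at 0.0181 to 0.144 FPKM. KLHL9 reached at most 0.135 FPKM, DMRTA1 at most 0.0108 FPKM and IFNE was listed at 0 in every library. CDKN2B-AS1, the antisense RNA across the locus, had 0.188 to 1.03 FPKM, and ELAVL2, further out, 0.183 to 1.47 FPKM.

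At the CDKN2C locus, FAF1, which starts 0.482 kb away on the opposite strand, was listed at 0 in 8 of 12 libraries and reached at most 0.291 FPKM. On the other side of CDKN2C, RNF11 stood at 29.98 to 51.2 FPKM and EPS15 at 8.70 to 25.7 FPKM. DMRTA2 reached at most 0.00720 FPKM. CDKN2A, CDKN2B and CDKN2C RNA was thus not detectable above the limit in any of the 6 groups, with or without the compounds, at this depth.

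**Figure D4:**
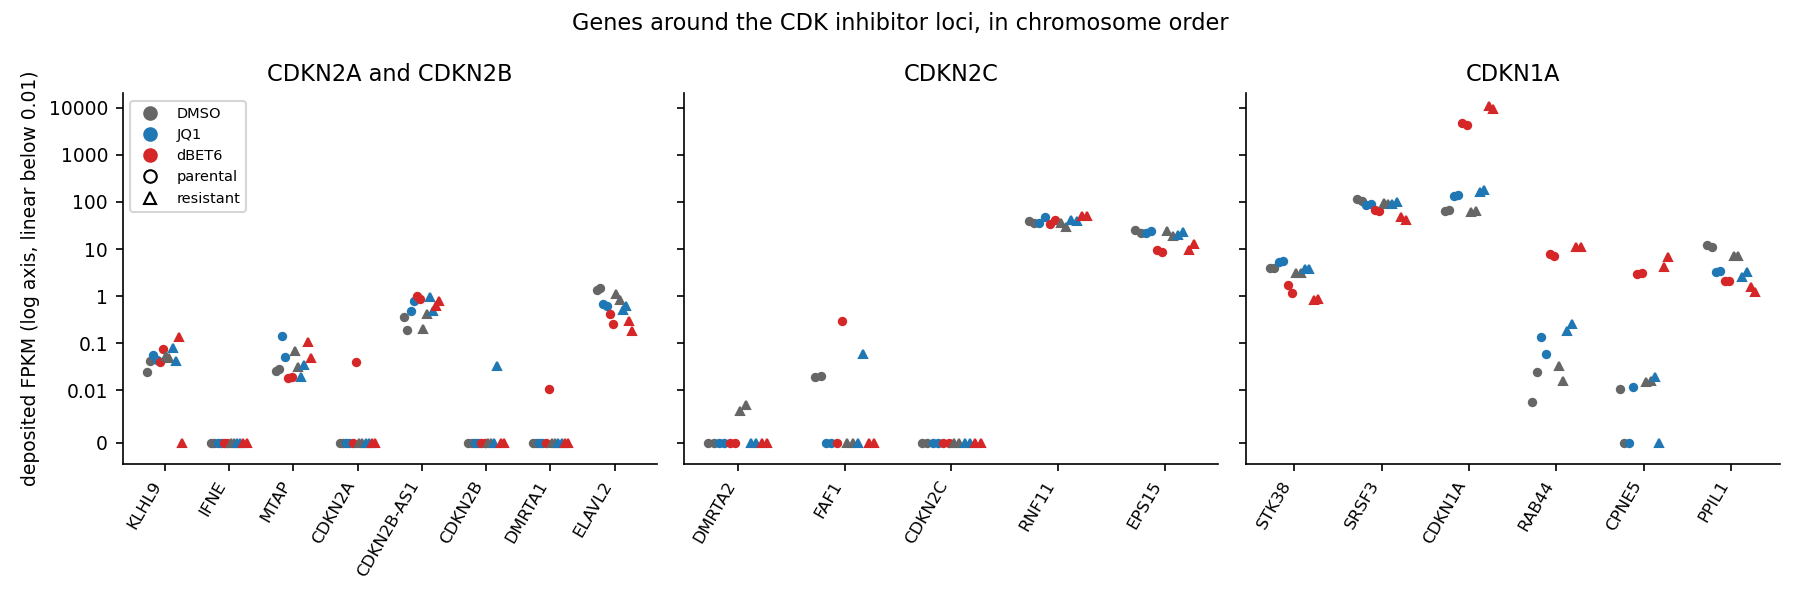
Deposited FPKM (log axis, linear below 0.01) of the genes around CDKN2A and CDKN2B, around CDKN2C and around CDKN1A, in chromosome order, with circles for parental and triangles for resistant libraries. CDKN2C is at 0 in all 12 libraries beside RNF11 at 29.98 FPKM or more, and RAB44 and CPNE5 lie at 2.97 FPKM or more in the 4 dBET6 libraries.

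CDKN2D, on chromosome 19 (chr19:10566462-10569059, minus strand), was the INK4 gene that U87 expressed. Parental libraries stood at 17.6 and 22.1 CPM with DMSO, 14.6 and 14.4 CPM with JQ1 and 42.6 and 42.1 CPM with dBET6. Resistant libraries stood at 14.5 and 15.7 CPM with DMSO, 15.4 and 16.95 CPM with JQ1 and 21.6 and 22.6 CPM with dBET6. The parental dBET6 libraries were the highest of all 12, and the resistant JQ1 libraries overlapped their DMSO controls. Per length, CDKN2D (15.4 FPKM ± 2.36, SD, n = 2, in parental DMSO) lay close to CDKN1B (13.9 FPKM ± 0.470) and below CDKN1A.

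The rise with dBET6 was 2.14-fold in the parental line (1.84 to 2.48, adjusted p = 3.72e-10 by edgeR) and 1.46-fold in the resistant line (1.24 to 1.72, adjusted p = 9.32e-05). Its direction depended on the scaling: log2 1.09 under TMM became 0.46 with total counts and −0.68 with mitochondrial scaling in the parental line, and 0.55 became −0.53 and −1.51 in the resistant line. Against JQ1, dBET6 left CDKN2D higher by log2 1.55 in the parental line (adjusted p = 6.22e-13, but 0.0809 and adjusted p = 0.744 under mitochondrial scaling) and by 0.45 in the resistant line (adjusted p = 0.000948, but −1.04 under mitochondrial scaling). In dBET6 the comparison between the lines kept its direction under each scaling, with the resistant line 1.92-fold below the parental line (log2 −0.94, adjusted p = 8.14e-08). The difference in dBET6 response was −0.55 (SE 0.15, adjusted p = 0.00838), opposite in sign to that of CDKN1A, and was lost without parental DMSO library 1 (−0.39, adjusted p = 0.074) or resistant DMSO library 2 (−0.48, adjusted p = 0.0569), and with mitochondrial scaling (adjusted p = 0.0522). With JQ1, CDKN2D fell 1.37-fold in the parental line (log2 −0.45, adjusted p = 0.000986) and did not change detectably in the resistant line (log2 0.10, interval −0.12 to 0.32, adjusted p = 0.486). The difference between these responses was 0.55 (SE 0.15, adjusted p = 0.027). It did not pass with total counts (0.48, adjusted p = 0.0697), with DESeq2 (0.54, adjusted p = 0.0514) or with mitochondrial scaling (0.29, adjusted p = 0.717). Nor did it pass with length-scaled counts or in any fit to FPKM. It was also lost without parental DMSO library 2 (0.39, adjusted p = 0.149), parental JQ1 library 1 (0.57, 0.0611) or 2 (0.55, 0.0627), resistant DMSO library 1 (0.50, 0.148) or 2 (0.62, 0.0631), or resistant JQ1 library 2 (0.47, 0.175). In DMSO the resistant line lay 1.31-fold below the parental line (log2 −0.39, adjusted p = 0.00421). This difference did not pass with length-scaled counts or in any fit to FPKM. The parental JQ1 call and the DMSO call were both lost without parental DMSO library 2, the higher of its pair (log2 −0.29, adjusted p = 0.0572, and −0.23, adjusted p = 0.16), and the DMSO call also without resistant DMSO library 1 (−0.34, adjusted p = 0.0743).

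CDKN2D has a pair of annotated coding transcripts, and their shares differed between the treatments. ENST00000393599, of 1422 bases, starts in a long first exon (chr19:10568513-10568978), and ENST00000335766, of 1086 bases, starts further upstream, in an exon (chr19:10568947-10569059) that overlaps the start of that one and is spliced to a shorter form of it. Both hold the same coding sequence of 498 bases. The stretch upstream of ENST00000335766 is shown because its transcript gained share with both compounds. It is RefSeq sequence (GRCh38.p14), chr19:10569060-10569229, minus strand, with GGGCGG and the CCAAT box in capitals.
CDKN2D upstream: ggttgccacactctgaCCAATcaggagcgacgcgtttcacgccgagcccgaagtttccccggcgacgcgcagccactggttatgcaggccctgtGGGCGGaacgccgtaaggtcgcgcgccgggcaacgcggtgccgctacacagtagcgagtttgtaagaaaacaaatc
ENST00000335766 made up 20.0% and 25.7% of the gene's TPM in the parental DMSO libraries, 55.7% and 52.8% with JQ1 and 73.2% and 77.2% with dBET6. In the resistant line the shares were 39.9% and 34.4% with DMSO, 58.5% and 59.4% with JQ1 and 72.5% and 73.8% with dBET6. Treated and DMSO libraries did not overlap in either line. Counts scaled for transcript length gave a smaller parental JQ1 value for the gene, which did not pass (log2 −0.27, adjusted p = 0.116 by edgeR), and so did the deposited FPKM (log2 −0.27, adjusted p = 0.0699 by limma). The shares rest on 112 to 730 estimated counts per transcript and library in parental DMSO, and this exchange was not tested. Of the genes near CDKN2D, KRI1 was called lower with dBET6 (log2 −0.92 in the parental and −1.77 in the resistant line) and SLC44A2 higher (0.54 and 1.13, but −1.25 and −0.94 under mitochondrial scaling). S1PR5 stood at 0.324 to 1.77 FPKM with DMSO and at 0.159 FPKM or less with dBET6, and AP1M2 did not pass in either line.

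Most genes of the cyclin, CDK and RB family list were called lower with both compounds. Of 14 cyclins, CDKs and RB family genes, 13 were tested, and CCND2 was not. With JQ1, 0 were called higher and 11 lower in the parental line, and 1 and 12 in the resistant line, with medians of log2 −0.71 and −0.63 against 0.01 for all tested genes in each line. With JQ1 26.1% and 23.1% of all genes were called lower, and with dBET6 39.3% and 39.5%. With dBET6, 1 was called higher and 10 lower in the parental and 1 and 11 in the resistant line, with medians of −1.56 and −2.05 and no median above 0 under any scaling. CCNA2, the S phase cyclin, stood at log2 −1.39 with JQ1 and −1.83 with dBET6 in the parental line and at −1.65 and −3.06 in the resistant line. The mitotic cyclin CCNB1 stood at −2.71 and −2.43 with dBET6, RBL1 (p107) at −3.13 and −3.34, and CDK2 at −1.56 and −2.17. CCND1, the cyclin D partner of CDK4 and CDK6, was the 1 gene called higher with JQ1 in the resistant line (log2 1.01). With dBET6 it stood at 0.65 and 0.50 under TMM and at −1.12 and −1.57 under mitochondrial scaling. The dBET6 responses of CCNA2, CDK1, CCND3 and CDK2 were lower in the resistant line, with differences of −1.23, −1.09, −1.11 and −0.61 (adjusted p = 1.38e-06, 7.14e-07, 2.35e-06 and 0.000734 by edgeR).

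Regulators of CDKN1A and p21 went both ways. Of 19, 5 were called higher and 8 lower with JQ1 in the parental line and 8 and 5 in the resistant line, and with dBET6 4 and 10 and 5 and 10, where 76.3% and 75.2% of all genes were called with dBET6 and 48.9% and 43.9% with JQ1. EGR1, a zinc finger factor that can bind GC-rich promoters, rose by log2 4.66 and 4.57 with dBET6, and KLF6, a Krüppel-like factor, by 1.92 and 3.33. SP1 stood at −2.57 in the resistant line and SP3 at −1.97 in the parental line. DTL, the receptor of the ligase that degrades p21 on PCNA, stood at −4.02 with dBET6 in the resistant line. MYC, which represses CDKN1A, was called lower with dBET6 in the parental line only narrowly (log2 −0.19, adjusted p = 0.0458 by edgeR). In the resistant line it was called higher (2.05, adjusted p = 1.22e-17, and −0.02 under mitochondrial scaling), a response difference of 2.24. With JQ1, MYC stood at 42.6 and 43.9 FPKM in the parental line, against 30.9 and 30.5 FPKM with DMSO. In the resistant line it stood at 48.9 and 50.7 FPKM with JQ1, against 24.6 and 23.2 FPKM with DMSO. With DESeq2's size factors the median gene stood at 0.109 for parental dBET6, against −0.0149 under TMM. The genes of this list called lower there were then 9 instead of 10. MDM2, which codes for a ubiquitin ligase, was picked after its values were seen: it stood at 11.03 to 16.7 FPKM with DMSO and at 964 to 2692 FPKM with dBET6.

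Of 10 regulators of the INK4 locus, 2 were called higher and 8 lower with dBET6 in the parental line and 2 and 5 in the resistant line, where 39.3% and 39.5% of all genes were called lower. The list medians were log2 −1.32 and −0.60. The Polycomb genes BMI1 and SUZ12, whose products keep the locus silent, stood at −2.04 and −2.25 in the parental and at −2.01 and −2.59 in the resistant line. ETS1, an activator of CDKN2A, was called higher under TMM in the parental (1.03) and the resistant line (1.51). Under mitochondrial scaling it stood at −0.73 and −0.56.

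**Figure D5:**
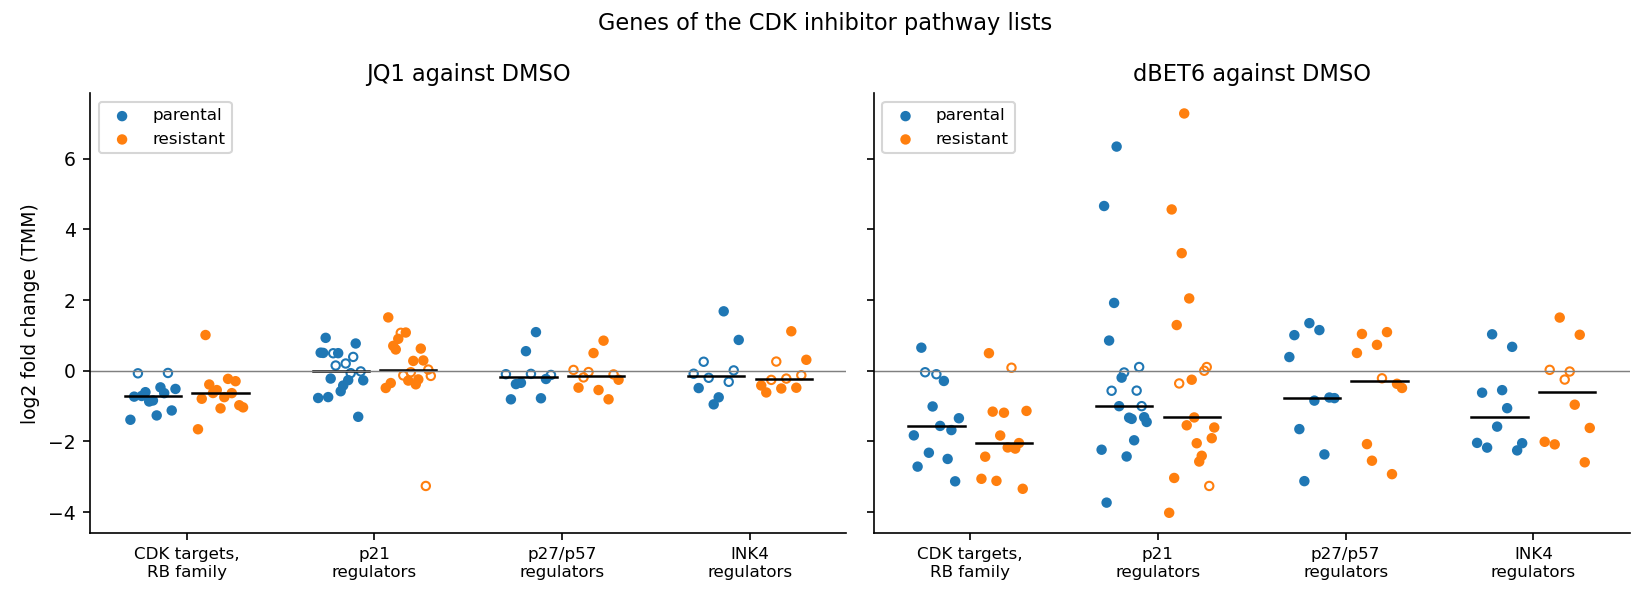
log2 fold change under TMM of every tested gene of 4 lists for JQ1 (left) and dBET6 (right) against DMSO, with filled points for genes past an adjusted p of 0.05, open points for the rest and bars for the list median. The medians for CDK targets and the RB family lie at −0.71 and −0.63 with JQ1 and at −1.56 and −2.05 with dBET6.

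The genes whose profile was most like each inhibitor were ranked by the Pearson correlation of log2 CPM over the 12 libraries, which share their depth and composition by treatment. For CDKN1A these were ANKRD1, a muscle ankyrin gene (r = 0.997, mean 0.272 CPM in parental DMSO, 51.8 in parental dBET6 and 157 in resistant dBET6), and the rows LINC00273, MIR663A, MIR3687 and MIR3648, with r of 0.995 for each, which are counted here as annotated loci and not as mature miRNAs. For CDKN1B they were PPIC, RBL2 and PDLIM5 (r = 0.949, 0.949 and 0.928), RBL2 being the pocket protein p130. For CDKN2D they were DUSP7, a MAP kinase phosphatase gene, DIAPH1 and EHD1 (r = 0.974, 0.969 and 0.963), each highest in parental dBET6. Between the inhibitors r was −0.75 for CDKN1A with CDKN1B, 0.72 for CDKN1A with CDKN2D and −0.68 for CDKN1B with CDKN2D. The dBET6 libraries stand apart from the others in most of these genes, and no test was made. ANKRD1, LINC00273 and MIR3687 reached the required mean of 10 CPM only through the dBET6 libraries. Their likeness to CDKN1A was thus partly set by that filter.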

How the data were processed

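Polyadenylated RNA of 12 libraries was sequenced, 2 in each of 6 groups taken from the sample labels. The authors deposited estimated counts and TPM per transcript for each library, made with kallisto, and a table of FPKM per gene, for which the submitters' processing notes name kallisto, DESeq2 and hg19. Versions, and how these tools were combined, are not stated there. Transcripts were matched to genes through GENCODE release 29, which paired 92.1% of 196354 transcripts and 94.7% to 96.2% of the counts. Estimated counts were added up over each gene's transcripts, then rounded.

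edgeR 4.0.16 (R 4.3.3) was run with TMM scaling, its low-count filter, robust quasi-likelihood tests over all 6 groups (6 residual degrees of freedom) and Benjamini-Hochberg adjustment over all 19093 genes, with a threshold of 0.05, for 11 comparisons. The fit was tested on simulated data in which few genes changed, unlike the broad change with dBET6. That test therefore does not bear on the choice of scaling. Alternatives were other scalings, DESeq2 1.42.0, no filter, length-scaled counts, limma 3.58.1 on log2 of FPKM with pseudocounts of 1 and 0.1, only the compared libraries, a replicate block and leaving out each library. Intervals and limits of counts cover counting error only.

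The 7 genes are reported whatever their result. Of each list, up to 4 genes with the smallest p in a comparison are named, with the listed genome neighbours and the 5 (CDKN1A) or 3 genes most alike among those with a mean of at least 10 CPM. The members and lists were chosen with earlier results of these data known. A further list and some single genes are not reported here.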

Additional observations from a re-analysis of the deposited data

Results flagged for a closer look

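In these results the response to a compound differed between the parental and the resistant line by a test of the difference itself (edgeR's quasi-likelihood test, adjusted over 19093 genes). For CDKN1A with dBET6 the log2 response was 0.914 higher in the resistant line (SE 0.127, adjusted p = 4.41e-06). Mitochondrial scaling gave 0.63, which did not pass, and total counts gave 0.48. For CDKN2D with dBET6 it was different by −0.547, lower in the resistant line (SE 0.154, adjusted p = 0.00838), a call lost without parental DMSO library 1 (adjusted p = 0.074) or resistant DMSO library 2 (0.0569) and with mitochondrial scaling (0.0522). For CDKN2D with JQ1 it was 0.552 higher in the resistant line (SE 0.153, adjusted p = 0.027), with a fall in the parental line and no detectable change in the resistant one. This call was lost in 6 of the 12 fits that left out 1 library. It was also lost with total counts, mitochondrial scaling, DESeq2, length-scaled counts and each fit to FPKM.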

How the results depend on the processing

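The calls for CDKN1A with JQ1 or dBET6 against DMSO kept their direction and their side of the threshold under every alternative and without each library. Mitochondrial scaling turned CDKN2D with dBET6 to −0.68 (parental) and −1.51 (resistant), resistant CDKN2D with JQ1 to −0.47, resistant CDKN2D between dBET6 and JQ1 to −1.04, CDKN1A, CDKN2D and CDKN1B between lines to −0.22 in JQ1, −0.36 in JQ1 and −0.33 in dBET6, CDKN1B between lines in DMSO to −0.21, resistant CDKN1B between dBET6 and JQ1 to −1.46 and the CDKN1B difference in dBET6 response to −0.12. Total counts turned resistant CDKN2D to −0.0929 with JQ1, −0.53 with dBET6 and −0.44 between the compounds, CDKN1A between lines in DMSO to 0.0373, CDKN1B between lines in dBET6 to −0.15, resistant CDKN1B between the compounds to −0.86 and the CDKN1B difference in dBET6 response to −0.26. Resistant CDKN1B between the compounds was −0.19 without the filter and −0.0942 with length-scaled counts. Mitochondrial scaling also ended the CDKN1A calls between lines in dBET6 (0.34, adjusted p = 0.16) and for the difference in dBET6 response (0.63, adjusted p = 0.134), FPKM without a filter ended CDKN1A between lines in JQ1 (0.28, adjusted p = 0.0758), and DESeq2 called the CDKN1A difference in JQ1 response (0.32, adjusted p = 0.0394). The causes were not tested.

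The number of inhibitor genes called fell from 2 to 1 for parental JQ1 with length-scaled counts and the 3 FPKM fits, for resistant JQ1 with FPKM without a filter, for resistant dBET6 against JQ1 without the filter and between lines in dBET6 with mitochondrial scaling. It fell from 1 to 0 between lines in DMSO with length-scaled counts and the 3 FPKM fits, between lines in JQ1 with FPKM without a filter, and for the difference in JQ1 response with total counts, mitochondrial scaling, length-scaled counts and the 3 FPKM fits. It rose from 2 to 3 for parental JQ1 with total counts, for resistant dBET6 against JQ1 with total counts and mitochondrial scaling, and between lines in dBET6 with DESeq2's size factors, the DESeq2 test, FPKM without a filter, and without parental dBET6 library 2 or resistant dBET6 library 1. It fell from 2 to 0 for the difference in dBET6 response with mitochondrial scaling. Among the alternatives it also rose from 3 to 4 for parental dBET6 against DMSO and against JQ1, which takes in a gene that the low-count filter removes. It fell from 3 to 2 for resistant dBET6 against DMSO and for parental dBET6 against JQ1. Without 1 library it ranged from 1 to 2 for JQ1 in either line and for the difference in dBET6 response, from 0 to 1 between lines in DMSO and in JQ1, and from 0 to 2 for the difference in JQ1 response. Without 1 library, CDKN1A between lines ranged from −0.0988 to 0.0241 in DMSO and from 0.25 to 0.34 in JQ1, and its difference in JQ1 response from 0.28 to 0.40, CDKN1B between lines in DMSO from −0.0218 to 0.0903 and resistant CDKN1B between the compounds from −0.11 to 0.0769. The CDKN1A difference in JQ1 response passed without parental dBET6 library 1 or 2 (adjusted p = 0.0476 and 0.0485), and the resistant CDKN1B call with dBET6 was lost without resistant dBET6 library 1 (−0.26, adjusted p = 0.0502).

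Libraries with the same replicate number did not deviate together (r from −0.06 to 0.06), and the main fit used no pairing. Noise of single genes weighs on this check, so it could miss a weak shared batch. A fit with the replicate number as a block gave log2 5.85 for CDKN1A with parental dBET6 and changed no count of inhibitor genes called. With 2 libraries a group, differences within the given intervals were not detectable. CDKN1C, CDKN2A, CDKN2B and CDKN2C were too low for the filter of the main fit.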
